A study of Arabidopsis thaliana with 6 samples.

Results

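Chlorophyll breakdown in mature Arabidopsis thaliana stems was followed through 8 genes, chosen by locus identifier from a deposited table of 34484 gene identifiers: NYE1 (AT4G22920), NYE2 (AT4G11910), NYC1 (AT4G13250), NOL (AT5G04900), PPH (AT5G13800), PAO (AT3G44880), RCCR (AT4G37000) and HCAR (AT1G04620). All 8 were present in the table and expressed. The study sequenced total RNA of main stems 42 days after flowering, from plants under a daily cycle of 16 h light and 8 h dark at 20 °C, in 3 libraries titled wild type and 3 titled as a mutant of γVPE. γVPE encodes a vacuolar cysteine protease, and the labels name neither the allele nor the ecotype. Values are FPKM, fragments per kilobase of gene scaled to the total of the library, and means are given ± SD over the 3 libraries of a set.

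The table has 3 columns named WT, read as wild type, and 3 named WT_V, which were assigned to the mutant only because no other group is left. The γVPE transcript itself (GAMMA-VPE, AT4G32940) goes against a simple reading of that assignment. It stood at 328.1, 328.1 and 325.4 FPKM in WT_V and at 163.1, 164.4 and 162.7 FPKM in WT, which is 0.997 ± 0.0165 on the log2 scale (difference ± SE, n = 3 per set). Every direction below is for the libraries labelled WT_V relative to those labelled WT, whatever their genotype. The titles number 3 replicates while the design text says that none were included, and separate plants are mentioned nowhere in the labels. The p-values thus measure only the spread among these libraries.

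The libraries were deep, with recovered scaling totals of 40308000 to 51013000 fragments. They also differed in organ markers. The 8 seed markers summed to 13180 to 13380 FPKM in WT_V and to 0 to 0.0353 FPKM in WT, where 7 of them, among them the 12S globulin gene CRU3 (AT4G28520) and the 2S albumin genes SESA2 and SESA3, were listed at 0. The 6 flower markers summed to 118.5 to 123.7 FPKM in WT_V against 27.95 to 31.14 in WT, led by SEP2, AP3 and PI, and the 3 fruit and ovule markers STK, SHP2 and SHP1 to 30.61 to 32.03 against 9.18 to 10.98. The 6 secondary wall markers of the stem, led by LAC4, CESA8 and CESA7, were present in all 6 libraries, at summed levels of 113.6 to 120.9 FPKM in WT_V and 38.56 to 39.78 in WT. The part that this difference in organ markers plays in the values below was not tested. In whole stems, fewer cells of a type and less RNA per cell cannot be told apart.

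Chlorophyll is broken down inside the plastid by a short chain of enzymes. Chlorophyll b is first turned into chlorophyll a by the reductases NYC1 and NOL, followed by HCAR. The stay-green proteins NYE1 and NYE2 then take out the central magnesium, PPH cuts off the phytol tail, PAO opens the ring and RCCR reduces the red product to a colourless one. The pathway is best known from yellowing leaves and from seeds that lose their green colour as they mature.

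Among the 8 members, NYE1 and NYE2 of the magnesium-removing step had the greatest differences. NYE1 was 1.61 times and NYE2 1.49 times as high in WT_V as in WT, and both kept their call under all 15 alternative analyses. The other members differed by far less, and of these NYC1, NOL, PPH and HCAR changed sign and PAO lost its call under another scaling given below. With the deposited scaling NYC1, NOL, PAO and HCAR were 1.07 to 1.17 times as high, PPH was not called, and RCCR was lower, at 92.1% of its WT level. By limma with an adjusted p of 0.05 as the threshold, 6 of 8 members were called higher and 1 lower. Across all 19144 genes tested, 76.0% were called, 51.9% higher and 24.1% lower, so a call by itself is common in these data. The WT_V and WT values of all 8 members did not overlap, which was also so for 77.6% of tested genes. The median log2 difference of the 8 members was 0.16, beside 0.17 for all genes tested. No member reached a called 2-fold difference, against 10.8% of tested genes called 2-fold or more higher and 1.07% called 2-fold or more lower.

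**Figure D1:**
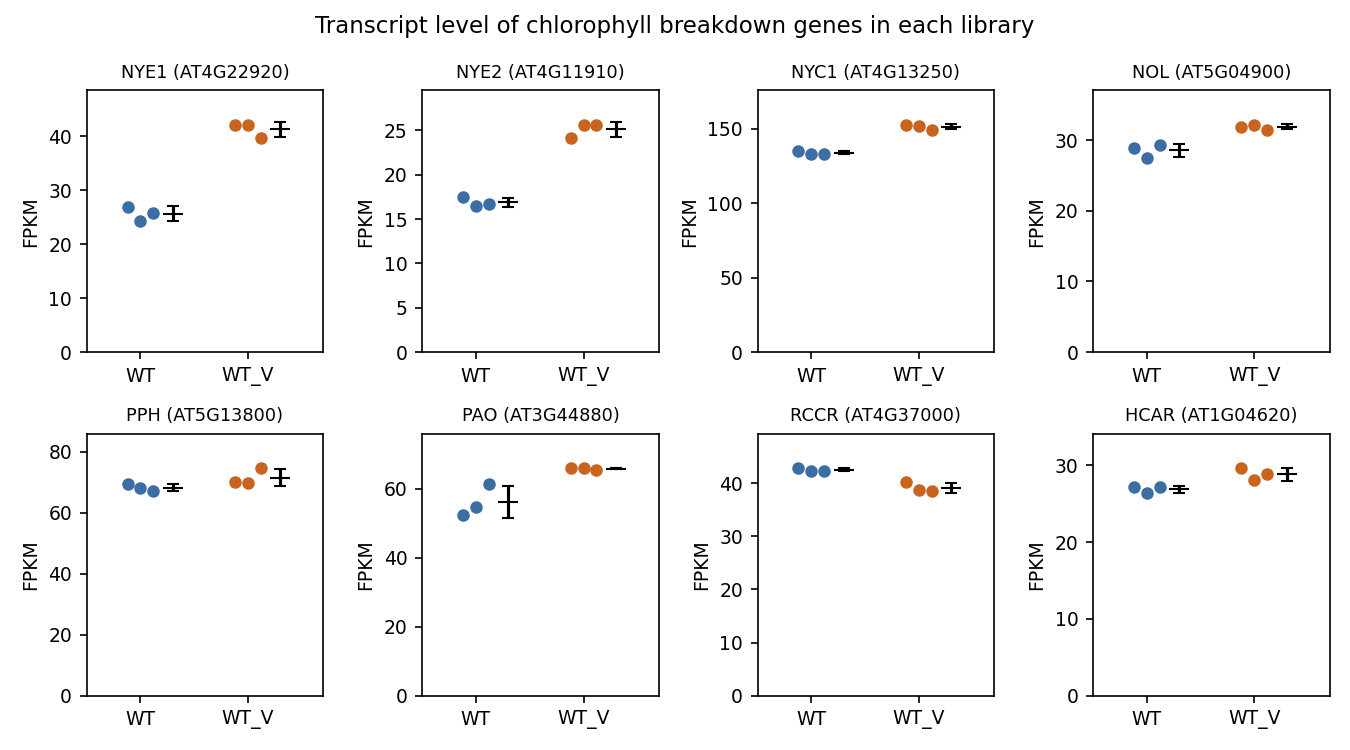
Level of each of the 8 chlorophyll breakdown genes in FPKM (y axis, starting at 0), with 1 point per library, WT in blue and WT_V in orange, and the mean ± SD of each set (n = 3) as a black bar. Relative to their level, the sets are farthest apart for NYE1 and NYE2, and RCCR is the gene whose WT_V points lie below its WT points.

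NYE1, the main magnesium dechelatase of leaf yellowing, measured 42.2, 42.1 and 39.7 FPKM in the WT_V libraries and 26.9, 24.3 and 25.9 FPKM in the WT libraries. All WT_V values were above all WT values, as was the case for 53.1% of tested genes, and the gap between the sets was larger than the whole range within either. The log2 difference was 0.66 ± 0.0439 (SE, limma adjusted p = 1.683e-07, n = 3 per set). It exceeded the median of all genes by 0.50, and 17.8% of tested genes had a greater difference. NYE2, its paralog with an overlapping role in seeds, measured 24.1, 25.6 and 25.6 FPKM in WT_V against 17.4, 16.4 and 16.8 FPKM in WT. Its sets did not overlap either, and its log2 difference was 0.55 ± 0.0435 (SE, limma adjusted p = 7.647e-07, n = 3 per set). An annotated neighbour of NYE2 with a stay-green-like product, AT4G11911, was at 0.211 to 0.24 FPKM in WT_V and listed at 0 in WT, and how reads shared with this copy were counted is not stated in the labels.

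Within each library NYE1 was more abundant per length than NYE2. The ratio of NYE1 to NYE2 was 1.75, 1.64 and 1.55 in WT_V and 1.54, 1.48 and 1.54 in WT. The lowest WT_V ratio was almost at the highest WT ratio, and on the log2 scale the sets differed by 0.12 (exact two-sided permutation p = 0.1, adjusted p = 0.15 over the 6 ratios examined). No comparison of 3 libraries with 3 can give an exact p under 0.1.

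The reductases that open the pathway for chlorophyll b differed less. NYC1, a subunit of chlorophyll b reductase, measured 152.7, 152 and 149.3 FPKM in WT_V and 135.3, 133.2 and 133.3 FPKM in WT. It was the most abundant member in both sets, at 32.9 to 33.9% of the summed FPKM of the 8 genes in every library. Its sets did not overlap, and its log2 difference of 0.17 ± 0.0201 (SE, limma adjusted p = 1.465e-05, n = 3 per set) lay within 0.01 of the median of all genes. NOL, the partner subunit, measured 31.9, 32.2 and 31.5 FPKM in WT_V against 28.9, 27.5 and 29.3 FPKM in WT, a log2 difference of 0.15 ± 0.0363 (SE, limma adjusted p = 0.00276). HCAR, which completes the conversion to chlorophyll a, measured 29.7, 28 and 28.8 FPKM against 27.1, 26.4 and 27.2 FPKM.

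HCAR had the weakest of the called differences, 0.10 ± 0.0365 (SE, limma adjusted p = 0.0333). The call was lost in limma fits that left out WT_V replicate 1 (adjusted p = 0.111), WT_V replicate 3 (0.0707) or WT replicate 2 (0.0966). Set against its partner subunit, NYC1 was 4.78, 4.72 and 4.74 times NOL in WT_V and 4.69, 4.85 and 4.54 times NOL in WT. These ratios overlapped between the sets, with a log2 difference of 0.02 (exact two-sided permutation p = 0.5, adjusted p = 0.5). NYC1 was 5.15 to 5.42 times HCAR in WT_V and 4.90 to 5.05 times in WT, without overlap but only 0.08 apart on the log2 scale (exact two-sided permutation p = 0.1, adjusted p = 0.15).

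PPH, the pheophytinase, stood at 70.2, 69.5 and 74.6 FPKM in WT_V and at 69.4, 68.1 and 67 FPKM in WT. The lowest WT_V value exceeded the highest WT value by little, and the log2 difference of 0.06 ± 0.0317 did not pass (SE, limma adjusted p = 0.0842, n = 3 per set). PAO, the ring-opening oxygenase, measured 65.9, 65.9 and 65.5 FPKM in WT_V against 52.4, 54.6 and 61.2 FPKM in WT. The WT_V libraries were nearly identical while WT replicate 3 was high for its set, which gave PAO the widest relative spread of the 8 members, 8.19% of its mean in WT. The log2 difference was 0.23 ± 0.0480 (SE, limma adjusted p = 0.00126), and it lay between 0.18 and 0.29 when single libraries were left out. With median-of-ratios scaling it fell to 0.03 and the call was lost (limma adjusted p = 0.556).

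RCCR, the red chlorophyll catabolite reductase, was the one member called lower in WT_V. It measured 40.2, 38.6 and 38.6 FPKM in WT_V and 42.8, 42.4 and 42.3 FPKM in WT. The sets did not overlap in this direction, which held for 24.4% of tested genes, and the log2 difference was -0.12 ± 0.0308 (SE, limma adjusted p = 0.00554, n = 3 per set). RCCR shares 167 annotated bases with AT4G37010 on the same strand, a gene at 2.51 to 4.36 FPKM in WT_V and 1.31 to 2.42 FPKM in WT. How the authors' counting treated reads in shared bases is not given in the sources used here.

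Within libraries, the levels of the last enzymes stood in a different proportion. PAO was 1.64, 1.71 and 1.697 times RCCR in WT_V and 1.22, 1.29 and 1.45 times RCCR in WT. The sets did not overlap, at a log2 difference of 0.35 (exact two-sided permutation p = 0.1, adjusted p = 0.15). The greatest difference among the 6 ratios was between the magnesium and phytol steps. NYE1 was at 0.601, 0.605 and 0.532 of the PPH level in WT_V and at 0.388, 0.357 and 0.386 of it in WT, a log2 difference of 0.60 without overlap (exact two-sided permutation p = 0.1, adjusted p = 0.15). The ratio of PPH to PAO overlapped between the sets, at 1.05 to 1.14 in WT_V and 1.095 to 1.33 in WT (exact two-sided permutation p = 0.2, adjusted p = 0.24). A ratio of FPKM within a library does not change when the whole library is rescaled. The log2 differences and p-values of the ratios used (FPKM + 1), so for them this holds only approximately.

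**Figure D2:**
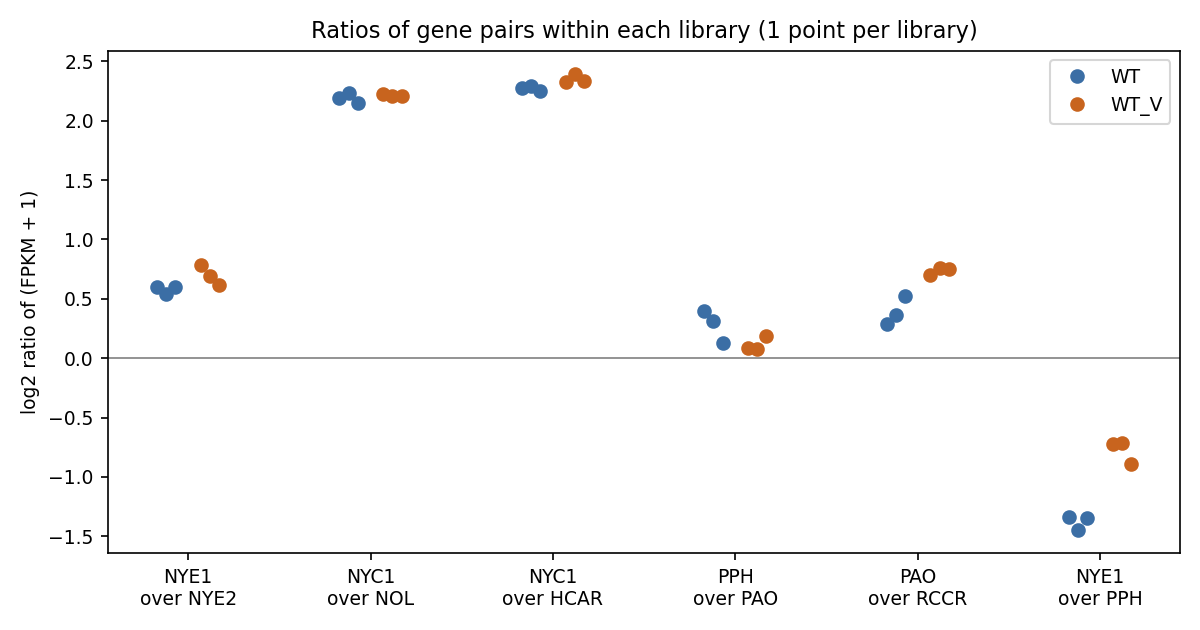
Log2 ratio of (FPKM + 1) for 6 pairs of chlorophyll breakdown genes (y axis), with 1 point per library, WT in blue and WT_V in orange. The NYE1 over PPH and PAO over RCCR ratios are higher in every WT_V library than in any WT library, and the NYC1 over NOL ratios overlap.

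The order of the members by level was much alike in the sets. In WT it ran from NYC1 at 133.9 FPKM through PPH at 68.2, PAO at 56.1, RCCR at 42.5, NOL at 28.6, HCAR at 26.9 and NYE1 at 25.7 to NYE2 at 16.9 FPKM, as means of 3 libraries. In WT_V, NYE1 moved up to the fourth place at 41.3 FPKM, and NYE2 stayed last at 25.1 FPKM. Only 1 pair of neighbours overlapped in each order, HCAR with NYE1 in WT and NYE1 with RCCR in WT_V. All members lay in the upper part of the tested genes by level, from NYE2, above 61.6% of them in WT, to NYC1, above 96.7% in WT_V. Together the 8 genes summed to 453.5 to 456.8 FPKM in WT_V and to 393 to 402.9 FPKM in WT.

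The direction of the small differences depended on how the libraries were scaled. With median-of-ratios scaling, which moves the median difference of all genes from 0.167 to -0.015, 2 members were called higher (NYE1 and NYE2) and 3 lower (RCCR, PPH and HCAR), where 35.5% of all genes were called higher and 37.9% lower. There NYC1 stood at -0.02, NOL at -0.04 and PAO at 0.03, and none of these passed (limma adjusted p = 0.295, 0.332 and 0.556). With quantile normalization 5 members were called higher and 1 lower, where 29.5% of genes were called higher and 44.8% lower. NOL then stood at 0.05 and HCAR at -0.01, and both lost their call (limma adjusted p = 0.214 and 0.739), while PPH gained one at 0.08 (limma adjusted p = 0.0479). NYE1 kept a difference of 0.47 and 0.58 and NYE2 of 0.36 and 0.38 under these scalings. RCCR kept its direction under both, at -0.31 and -0.17, but its call was lost with nuclear loci alone and equal totals, at -0.06 (limma adjusted p = 0.0812).

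**Figure D3:**
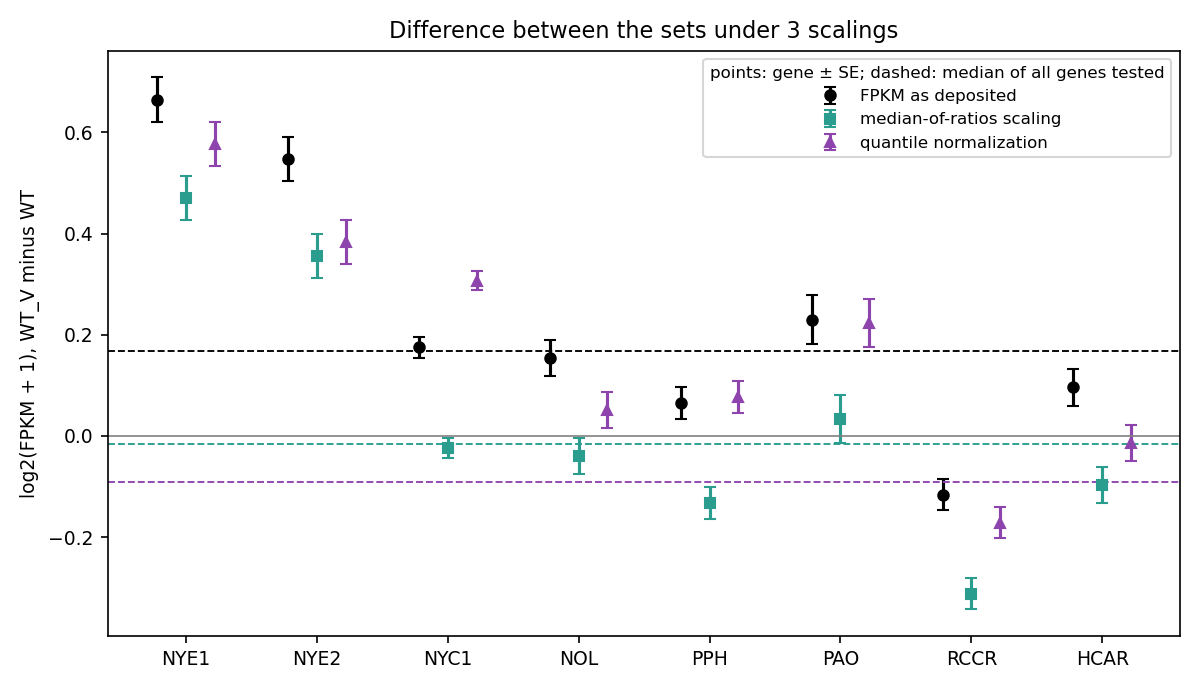
Log2 difference of each chlorophyll breakdown gene, WT_V minus WT, on the log2(FPKM + 1) scale with its SE (y axis) under the deposited scaling, median-of-ratios scaling and quantile normalization; dashed lines mark the median of all genes tested under each. NYE1 and NYE2 lie above 0 and RCCR below 0 under all 3, and NYC1, NOL, PPH and HCAR change sign under at least 1.

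Further genes of breakdown went both ways. Of 7 listed, 6 were tested, and 2 of these were called higher and 3 lower in WT_V, beside 51.9% higher and 24.1% lower among all tested genes. The median of their log2 differences was -0.11. MES16, which demethylates the catabolites in the cytosol, averaged 55.9 ± 0.684 FPKM (SD, n = 3) in WT_V and 32.2 ± 1.42 in WT, and TIC55, which hydroxylates them at the plastid envelope, 32.1 ± 0.781 against 24.8 ± 0.641. CYP89A9, the enzyme of a side branch of catabolites, was not called with the deposited scaling, at 103.7 ± 1.43 against 105.3 ± 0.378 FPKM. It was called lower with median-of-ratios scaling (-0.221, limma adjusted p = 5.117e-06) and higher with quantile normalization (0.069, limma adjusted p = 0.0209). Lower in WT_V were CLH1, a chlorophyllase, at 47.7 ± 0.643 against 54.9 ± 0.874 FPKM, the stay-green-like gene AT1G44000 at 41.4 ± 1.08 against 55.5 ± 2.37, and AT5G38520, annotated as an alpha/beta hydrolase, at 48.2 ± 1.64 against 74.5 ± 1.78. AT1G44000 thus differed in the direction opposite to NYE1 and NYE2. CLH2 averaged under 1 FPKM, at 0.868 ± 0.0953 in WT_V and 0.266 ± 0.212 in WT, and was not tested by limma (exact two-sided permutation p = 0.1).

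The phytol freed by PPH can be stored as fatty acid esters or returned to tocopherol. All 5 genes of this list were tested, and 4 of them were called higher and 0 lower, where 51.9% and 24.1% of all genes were, with a median of 0.28 for their log2 differences. With median-of-ratios scaling 2 were called higher and 1 lower, where 35.5% and 37.9% of all genes were. The differences were largest in the phytyl ester synthase genes. PES1 measured 34.9 ± 1.05 FPKM in WT_V against 8.05 ± 0.154 in WT, and PES2 17.9 ± 1.14 against 5.78 ± 0.205, at log2 differences of 1.99 and 1.48. FOLK, which phosphorylates farnesol and other prenyl alcohols, differed less, at 23.7 ± 0.442 against 19.3 ± 1.71 FPKM. Its call was lost with median-of-ratios scaling (0.092, limma adjusted p = 0.173) and with quantile normalization (0.129, limma adjusted p = 0.0568). PES1 and PES2 kept theirs under both.

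Genes of chlorophyll synthesis were mostly lower in WT_V. Of 27 listed genes 26 were tested. Of these 19 were called lower and 3 higher, beside 24.1% lower and 51.9% higher among all tested genes. The median of their log2 differences was -0.33. PORB, which encodes a protochlorophyllide oxidoreductase, averaged 176.9 ± 4.48 FPKM in WT_V against 271.4 ± 5.50 in WT, and PORA 1.43 ± 0.379 against 3.13 ± 0.227. AT1G74470, annotated as a geranylgeranyl reductase, measured 253.7 ± 4.97 against 359.4 ± 1.60 FPKM. The 3 genes called higher differed little, with HEMD at 16.5 ± 0.937 against 14.9 ± 0.216, GSA2 at 45.4 ± 0.572 against 42.3 ± 2.67 and the protoporphyrinogen oxidase gene PPOX at 44.6 ± 0.386 against 41.8 ± 1.66 FPKM. With median-of-ratios scaling 0 members of the list were called higher and 24 lower, where 35.5% and 37.9% of all genes were. With quantile normalization 0 were called higher and 21 lower, where 29.5% and 44.8% of all genes were. The count higher was also 0 without WT_V replicate 2 or without WT replicate 3, where 9232 and 9768 of all genes were called higher.

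Genes for the light harvesting proteins, which hold the chlorophyll, were lower in WT_V with 1 exception. Of 17 tested, 16 were called lower, against 24.1% of all tested genes, and the median of their log2 differences was -0.76. Their summed level was 9024 to 9206 FPKM in WT_V against 15650 to 15700 in WT. With quantile normalization 14 were called lower, where 44.8% of all genes were, and the median was -0.55. LHCB4.1 (-0.016) and LHCB5 (-0.025) then lost their call (limma adjusted p = 0.184 and 0.103). With the deposited scaling the greatest decreases were in LHCB1.1, LHCB1.4 and LHCB1.2, at log2 differences of -1.465, -1.33 and -1.195. These belong to a family of closely related genes, and how reads matching several of them were counted is not stated, so their separate values are uncertain. Their relative LHCB1.5 had a listed value of 0 throughout. The exception was LHCB4.3, at 95.5 ± 2.95 FPKM against 15.7 ± 1.29. In the same libraries NYC1, which with NOL starts the breakdown of the chlorophyll b held in these complexes, was at 1.13 times its WT level. Its log2 difference lay within 0.01 of the median of all genes. With median-of-ratios scaling it was -0.024 and not called (limma adjusted p = 0.295).

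**Figure D4:**
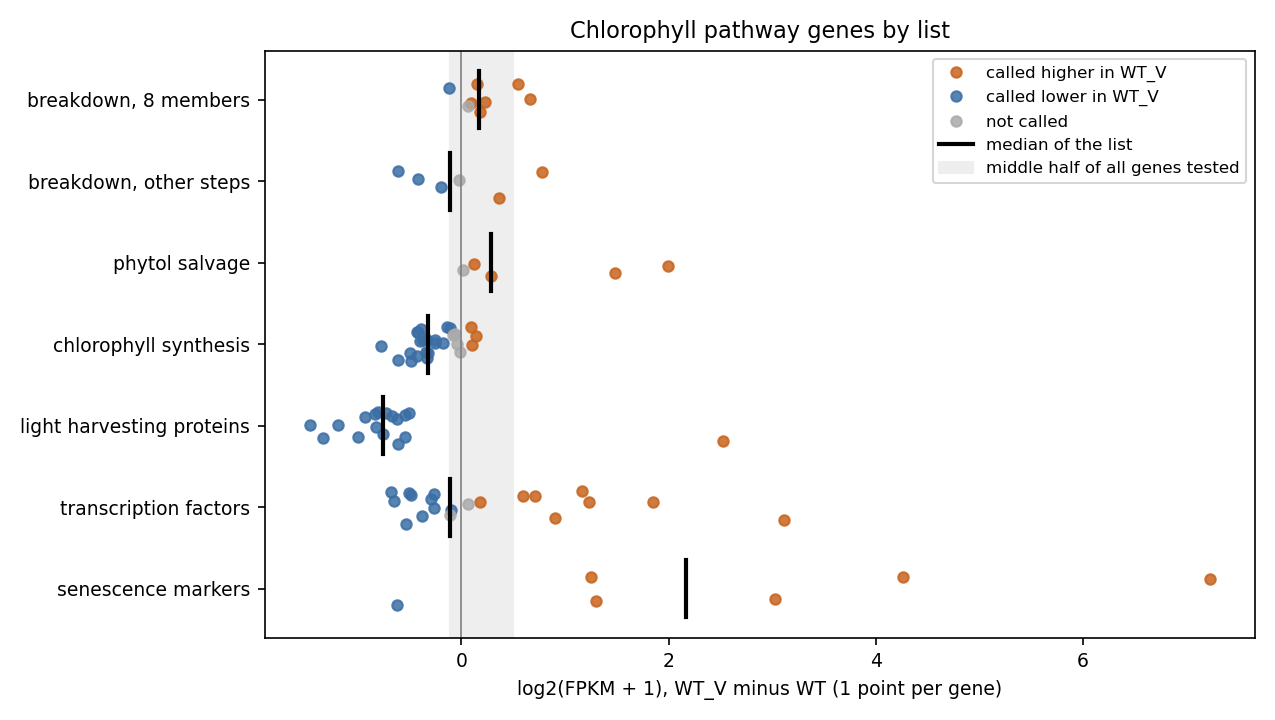
Log2 difference, WT_V minus WT, on the log2(FPKM + 1) scale (x axis) for each tested gene of 7 lists, coloured by its limma call, with the list median as a black bar and the range from the lower to the upper quartile of all genes tested (-0.11 to 0.50) in grey. The 8 breakdown genes lie from -0.12 to 0.66, synthesis and light harvesting genes lie mostly to the left of them, and senescence markers reach 7.22.

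Transcription factors reported to act on chlorophyll breakdown genes went both ways. Of 21 listed, 20 were tested, and 8 of these were called higher and 10 lower in WT_V, beside 51.9% higher and 24.1% lower over all genes. The median of their log2 differences was -0.11. ABI3, a seed maturation regulator, stood at 7.65 ± 0.653 FPKM in WT_V, and its 3 WT values were listed at 0. NAC016, a promoter of leaf senescence, measured 13.0 ± 0.618 against 2.89 ± 0.128 FPKM, and NAC072 (RD26) 35.02 ± 0.757 against 14.4 ± 0.283. The greatest decreases were in PIF5 (30.7 ± 0.665 against 49.9 ± 0.944 FPKM), PIF4 (20.8 ± 0.650 against 33.3 ± 1.58) and MYC4 (35.6 ± 2.11 against 51.9 ± 1.17), of which the PIF factors act in dark-induced senescence and MYC4 in jasmonate responses. MYC2 had a listed value of 0 throughout, which can be a failed estimate and need not mean that the gene was silent. ABI3 went with the seed markers given above, which were at or near 0 in WT, and their part in its difference was not tested.

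Several senescence markers had differences many times those of the breakdown genes. Of 6 tested, 5 were called higher and 1 lower, in a table where 51.9% of genes were called higher and 24.1% lower. SAG12, which encodes a cysteine protease of senescing leaves, averaged 163.4 ± 5.93 FPKM in WT_V against 0.101 ± 0.0549 in WT, SWEET15 77.8 ± 1.87 against 3.11 ± 0.282, and SAG13 115.4 ± 0.942 against 13.3 ± 1.198. DIN1, a gene of dark-induced and early senescence, was lower, at 30.3 ± 0.372 against 47.2 ± 2.01 FPKM. NYE1, which had the greatest difference of the 8 members, was at 160.7% of its WT level in these same libraries. The seed, flower and fruit markers given above were higher in the same libraries, and their part in the senescence and light harvesting values was not tested.

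Over the 6 libraries, the centred log2 profiles closest to those of 4 members were sought among all tested genes by Euclidean distance. Closest to NYE1 were AT2G32320 (distance 0.0538) and POLA2 (0.0560), and closest to NYC1 were KUP7 (0.0222) and NBR1 (0.0231). Closest to PPH were AT4G17540 (0.0225) and ERS (AT5G64050, 0.0342), and closest to PAO were AT1G05860 (0.0328) and AT5G50420 (0.0381). With 2 sets of 3 libraries such a profile is little more than the difference between the sets and the order of the libraries within them.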

How the data were processed

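The authors deposited 1 table of FPKM values with 34484 identifiers and 6 columns. Tools named in the submitters' processing notes are HTSeq 0.6.1, TopHat2 2.0.12 and Bowtie2 2.2.3. Neither the build nor the annotation, the strand setting or the handling of multiply matching reads is given in the sources used here, so no coordinates or sequences are printed. WT columns were matched to wild type titles by name and number, and WT_V columns to the mutant as the remaining group. Names came from the TAIR10.1 reference table (32548 identifiers matched).

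Genes whose mean reached 1 FPKM were tested on log2(FPKM + 1), WT_V minus WT, with limma 3.58.1 (R 4.3.3, intensity trend) and Benjamini-Hochberg adjustment at 0.05 over all 19144 genes. This scale understates changes of low genes. All 8 members passed the filter. Ratios of WT_V to WT are of mean FPKM. Ratios of gene pairs are of FPKM within a library, and their log2 differences and tests used (FPKM + 1). The members and lists were chosen with earlier results of these data known. Of 115 listed genes, all were in the table. The text names from each list the 3 greatest called increases and decreases; CYP89A9, CLH2, AT4G11911 and the genes of the closing part were named after their values were seen. Exact permutation tests used scipy 1.17.1. Figures were drawn with matplotlib 3.10.9.

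Multiplying values by exon length from the TAIR10.1 annotation gave whole numbers of a common step, to a tolerance of 0.02 counts, in 99.19% of 16035 single-transcript genes above 0, and so each library's scaling total. In a gene of 1 kb, 1 count equalled 0.0196 to 0.0248 FPKM. For the 5 members whose values came out whole the recovered counts were 899 to 6782 per library. These counts served to describe depth, to compare replicates (mean chi-square of 3.25 to 3.50 per gene, above sampling noise for every pair of a set) and to draw the simulated data on which the limma script was checked. The alternatives were other pseudocounts, filters and scalings, no trend, a replicate block, nuclear loci alone and leaving out each library in turn.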

Additional observations from a re-analysis of the deposited data

How the results depend on the processing

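NYE1 and NYE2 kept direction and call under all 15 alternatives, at log2 differences of 0.47 to 0.72 and 0.36 to 0.60. With median-of-ratios scaling the signs of NYC1 (-0.024), NOL (-0.040), PPH (-0.133, adjusted p = 0.00318) and HCAR (-0.097, adjusted p = 0.0305) turned, and with quantile normalization that of HCAR (-0.014). The members called higher then numbered 2 with median-of-ratios scaling, and those called lower 3, beside 35.5% and 37.9% of all genes. With nuclear loci alone and equal totals 0 were called lower (RCCR at -0.063, adjusted p = 0.0812) and PPH was called higher (0.118, adjusted p = 0.00582). In that fit 10886 of 18928 genes tested were called higher and 3883 lower, and the median log2 difference of all genes was 0.219. HCAR also lost its call without the intensity trend (adjusted p = 0.0502). Leaving out single libraries gave 5 to 6 members called higher and 1 lower. Across the table these fits called 9232 to 9861 genes higher and 4313 to 4431 lower.

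Across the table, quantile normalization gave 5643 genes higher and 8572 lower, and median-of-ratios scaling 7224 lower, against 9931 and 4619. Genes called 2-fold or more higher numbered 866 with a pseudocount of 5, 961 with a minimum mean of 5 FPKM and 1228 with quantile normalization, against 2077. Those 2-fold or more lower numbered 312 and 93 with a pseudocount of 0.1 and 5, 426 with median-of-ratios scaling, 656 with quantile normalization and 132 with nuclear loci alone, against 204. Without single libraries these counts were 9232 to 9861, 4313 to 4431, 1944 to 2195 and 203 to 225. Phytol salvage genes called higher numbered 2 with either scaling and those called lower 1 with median-of-ratios scaling. Synthesis genes called higher numbered 0 with either. Among all genes 35.5% were called higher and 37.9% lower with median-of-ratios scaling, and 29.5% higher with quantile normalization. The cause of these moves was not tested.

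The log2 ratio of NYC1 over NOL turned to -0.001 without WT replicate 3, within a range of -0.001 to 0.044 over single libraries left out. Deviations of same-numbered libraries correlated at -0.016, -0.016 and 0.014, so no effect shared by replicate number was visible. These values cannot tell whether the libraries were prepared in pairs. The replicate block left NYE1 at 0.665 and changed no member's call, with 9868 genes higher and 4609 lower. The recovered member counts, 899 or more per library, carry a counting error (SD) of at most 3.33%, that of NYE2. Across genes, the variance between replicates was 3.25 to 3.50 times that of sampling, as the mean chi-square per gene.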

Other observations

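GUN4 (AT3G59400), a regulator of magnesium chelatase in chlorophyll synthesis, was near 0 in both sets, at 0.230 ± 0.0455 FPKM (SD, n = 3) in WT_V and 0.255 ± 0.0623 in WT, and was not tested by limma. The chelatase subunit genes that act with it were abundant. GUN5 stood at 90.7 ± 0.215 against 93.3 ± 1.49 FPKM and CHLI1 at 111.8 ± 1.90 against 141.2 ± 1.01 FPKM (called lower). GUN5 was not called with the deposited scaling but was called lower with median-of-ratios scaling (-0.24, limma adjusted p = 3.509e-06). A value near 0 in a table of this kind can be a failed estimate, and these genes were chosen after their values were seen. PORB exceeded PORA in every library, and PORC measured 62.9 ± 2.29 FPKM in WT_V against 79.8 ± 0.490 in WT.

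Among transcription factors not described above, the abscisic acid response genes differed in direction. EEL measured 29.9 ± 0.262 FPKM in WT_V against 12.8 ± 0.536 in WT and ABI5 9.67 ± 0.314 against 5.56 ± 0.987 (SD, n = 3). Lower were ABF3 at 41.5 ± 0.900 against 59.5 ± 1.37, ABF2 at 41.4 ± 0.592 against 49.9 ± 0.827 and ABF4 at 31.8 ± 0.841 against 34.2 ± 0.681. The seed markers given above were also higher in WT_V, and their part in these differences was not tested. Of the senescence NAC genes, NAC046 was higher, at 11.3 ± 0.746 against 5.60 ± 0.581 FPKM, and ORE1 lower, at 33.0 ± 0.421 against 46.9 ± 4.16 FPKM. These genes too were chosen after their values were seen.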
